A study of Mus musculus with 10 samples.

Results

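The collagen gene family of the mouse femur was examined across all types that the array measures, in mice whose hindlimbs had been unloaded for 24 h and in freely moving mice. Members were the gene probes whose name in the scanner files is a collagen chain symbol, that is Col, a type number, the letter a and a chain number. This took 40 of 27962 names on the array, with 78 of 41174 gene probes. By class there were 6 genes of the bone fibrillar types I, III and V, 7 of the cartilage types II, IX, X and XI, 6 of the basement membrane type IV and 3 of type VI. A further 6 genes were fibril-associated collagens (FACIT), 4 were transmembrane collagens and 8 belonged to other types. The array also carried 4 probes with older names that current RefSeq symbols assign to collagens, 1 each for Col6a4, Col6a6, Col26a1 and Col11a1, and these were added only as an alternative.

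Collagens are secreted or membrane-anchored proteins whose chains wind around each other into a helix. Type I, with smaller amounts of types III and V, forms the fibres that give bone its tensile strength, while type II with types IX and XI forms the fibrils of cartilage, and type X is made by the hypertrophic chondrocytes of the growth plate. Type IV makes the sheet of basement membranes, for example around blood vessels, type VI makes beaded filaments close to cells, FACIT collagens sit on the surface of fibrils, and transmembrane collagens span the cell membrane. Newly made chains are hydroxylated and folded in the endoplasmic reticulum, trimmed outside the cell and cross-linked there by lysyl oxidases.

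The study compared 5 HLS mice (hindlimb suspension) with 5 Control mice. All 10 were male ICR mice aged 6 months, caged singly on a reversed light-dark cycle and assigned to the groups at random. HLS mice hung head-down by the taped tail for 24 h, with no load on the hindlimb muscles, and Control mice walked freely. Total RNA of the femur of each mouse was labelled with Cy3 and put on 1 Agilent array, and the design text calls the replicates independent and biological. Because the extract is of bulk bone, fewer cells of a type and less RNA per cell cannot be told apart. Values are log2 of the processed spot signal relative to the 75th percentile of the same array, which lay between 636.5 and 779.5 intensity units on HLS arrays and between 680.4 and 903 on Control arrays. Between 89.8% and 95.2% of the spots were well above background on HLS arrays, and between 91.9% and 95.5% on Control arrays. All 6 osteocyte markers and the 9 of 10 osteoblast markers that the array carried passed the filter on dim probes, as did 12 of 12 cartilage markers that are not collagens. The arrays lay on 3 slides: HLS 1 to 3 shared slide 2 with Control 5, HLS 4 and 5 lay on slide 3, and Control 1 to 4 lay on slide 1. The arrays of HLS 2 and Control 5 stood apart for the collagens. HLS 2 had the highest value of the 10 arrays for 15 of 39 genes, and Control 5 had the lowest for 20 of 39.

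No collagen passed the test between HLS and Control femurs. Tests took the probes that cleared background on 4 or more of the 5 arrays of a group, and this kept 75 of the 78 probes and 39 of the 40 genes. The probe of Col28a1, a collagen of the other types, was well above background on 3 HLS and 2 Control arrays and was not tested, nor were 1 of 3 probes of Col2a1 and 1 of 3 of Col25a1. Of the 75 probes, 0 passed a Benjamini-Hochberg adjusted p of 0.05 in limma's test over all 38629 tested probes, where 0.00259% passed. The smallest adjusted p of a collagen probe was 0.219. At an unadjusted p below 0.05 there were 9 of 75 collagen probes, which is 12%, against 16.1% of all tested probes. Of these, 8 had the higher mean in HLS, a result that 10.2% of all tested probes gave, and 1 had the lower mean, as did 5.92% of all. The count moved with the processing: it was 2 of 75 without Control 3 (10.5% of all tested probes), 14 of 75 without HLS 2 (24.8%), 4 of 75 with arrays scaled to their medians (15.2%) and 3 of 75 with normexp background correction (8.36%). With slide as a fixed block the collagen share was the larger, but that fit rested on slide 2, where Control 5 is the only Control array. In that fit 58 of 75 collagen probes and 51.3% of all tested probes were higher in HLS. HLS and Control values overlapped for each of the 75 probes, whereas the groups were apart for 3.16% of all tested probes, 1.51% with every HLS value above and 1.65% with every HLS value below. The HLS mean was above the Control mean for 52 of the 75, a direction that 62.6% of all tested probes had. The median log2 difference, HLS minus Control, was 0.10 over the collagen probes and 0.066 over all tested probes. With each array scaled to its median in place of its 75th percentile, 39 of 75 collagen probes and 43.9% of all tested probes were on the HLS side, and the median over all tested probes was -0.030.

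**Figure D1:**
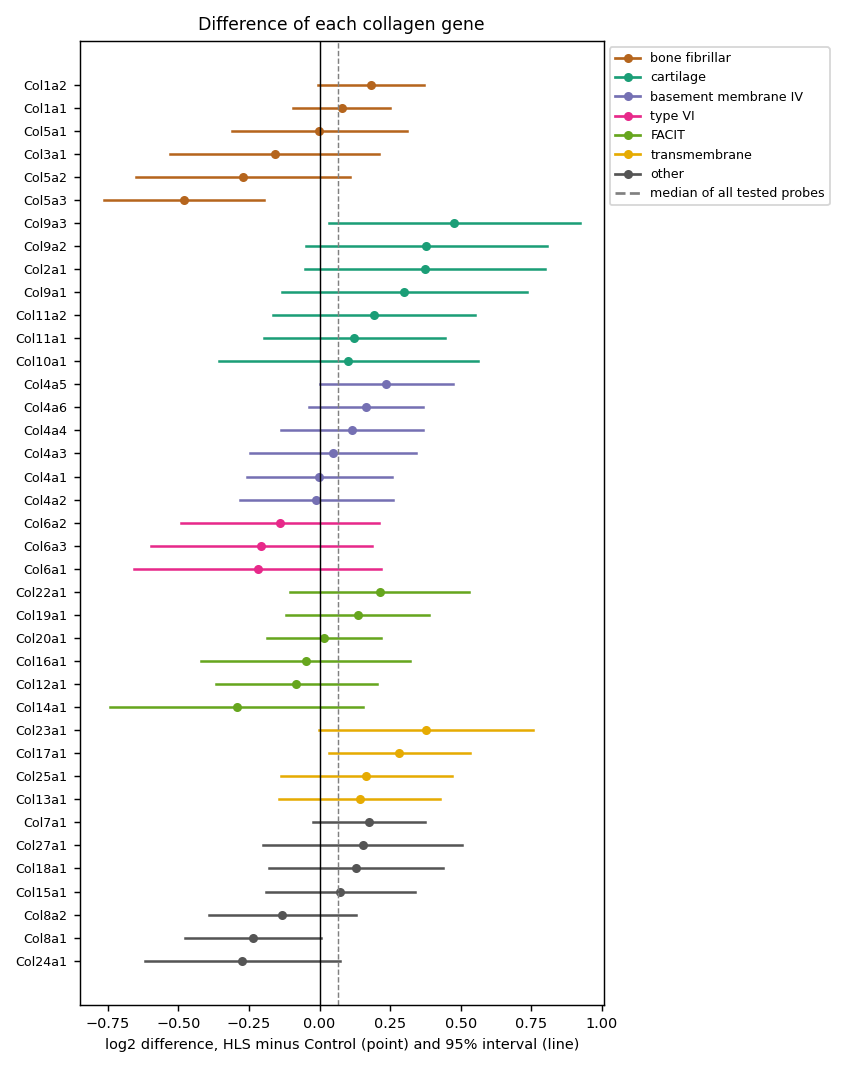
Log2 difference of each of the 39 tested collagen genes, HLS minus Control (x axis), grouped by class down the page. Points are estimates from the brightest tested probe of a gene, lines are 95% intervals (5 arrays per group), and the dashed line is the median of all tested probes, 0.066; the 7 cartilage and 4 transmembrane points lie right of 0 and the 3 type VI points left of it.

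In what follows a gene is represented by its tested probe with the highest mean signal. The 6 bone fibrillar genes had 2 positive and 4 negative log2 differences with a median of -0.080, and 0 of 6 were called. Their median became -0.21 without Control 5, -0.019 without Control 2, -0.0024 without HLS 4 and 0.026 with the mean of all tested probes of a gene. Within slide 2 it was 0.29, with 5 of 6 genes higher in HLS. Col1a1 and Col1a2 encode the chains of type I collagen. Col1a1 read 6.93, 7.01, 6.95, 6.97 and 6.94 in HLS mice 1 to 5, against 6.88, 6.85, 6.80, 6.93 and 6.95 in Control mice 1 to 5. Only Control 5 lay among the HLS values, and Control 3 was the lowest of the 10. The log2 difference was 0.078 (SE 0.08, 95% interval -0.09 to 0.25, adjusted p = 0.6). Col1a2 read 7.85, 7.98, 8.04, 7.94 and 7.92 in HLS mice, against 7.74, 7.69, 7.66, 7.93 and 7.79 in Control mice. Control 1, 2, 3 and 5 lay below every HLS value, and Control 4 lay among the HLS values. The log2 difference of Col1a2 was 0.18 (SE 0.09, 95% interval -0.01 to 0.37, adjusted p = 0.32). Both probes were very bright, with 78826 to 104562 intensity units for Col1a1 and 165470 to 190218 for Col1a2 over the 10 arrays. The scanner software marked neither as saturated. Before the arrays were scaled, the mean intensity of Col1a2 was 177239 in HLS and 177713 in Control femurs. That of Col1a1 was 89747.4 in HLS and 96776.5 in Control femurs. Thus both genes had the lower mean in HLS before scaling and the higher mean after it. The dimmer probe of Col1a2 gave a log2 difference of -0.039.

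Col3a1, the chain of type III collagen found beside type I in vessels, marrow stroma and periosteum, read 5.06, 5.13, 4.75, 4.65 and 5.25 in HLS mice, against 5.04, 5.41, 5.50, 5.13 and 4.56 in Control mice. Control 5 was the lowest of all and Control 3 the highest, so the Control range enclosed the HLS range. The log2 difference was -0.16 (SE 0.17, adjusted p = 0.623), and it was -0.066 without Control 3 and -0.30 without Control 5. Col5a3 encodes a chain of type V collagen, which sets the diameter of type I fibrils, and had the smallest p of the family. It read 1.03, 1.23, 0.86, 0.54 and 0.67 in HLS mice, against 1.43, 1.46, 1.48, 1.24 and 1.13 in Control mice. Only the highest HLS value, that of mouse 2, lay above the lowest Control value, that of mouse 5. The HLS mean was 0.87 ± 0.27 and the Control mean 1.35 ± 0.15 (SD, n = 5 each), a log2 difference of -0.48 (SE 0.13, 95% interval -0.76 to -0.19, unadjusted p = 0.00289, adjusted p = 0.219 in limma). Within slide 2 the difference was -0.089. The second probe of Col5a3 went the other way, at 0.26 (adjusted p = 0.275), with -0.34, -0.32, -0.38, -0.21 and -0.01 in HLS mice against -0.43, -0.66, -0.63, -0.45 and -0.38 in Control mice. On this probe the groups met only at HLS 3 and Control 5. Col5a1 and Col5a2, the chains of the common form of type V, had log2 differences of -0.0018 and -0.27 (adjusted p = 0.995 and 0.423).

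**Figure D2:**
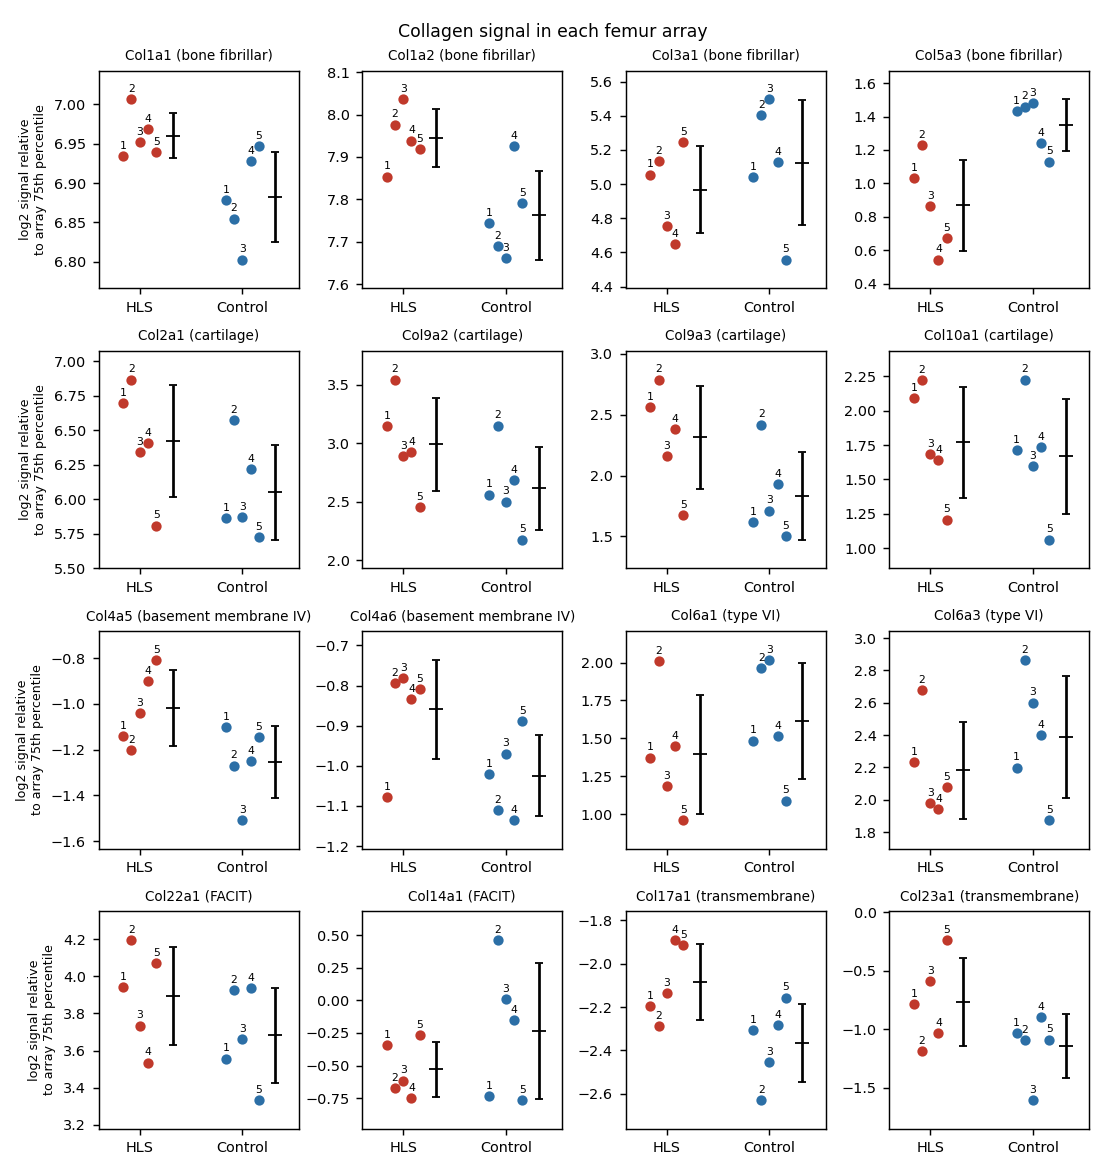
Log2 signal relative to the array's 75th percentile (y axis, own scale in each panel) of 16 collagen genes in 5 HLS and 5 Control femurs. Points are arrays labelled with their replicate number, horizontal ticks are group means and bars are SD; for Col5a3 HLS 2 alone reaches into the Control range, and for Col2a1, Col9a2 and Col9a3 HLS 2 is the highest and Control 5 the lowest of the 10.

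All 7 cartilage genes had a higher mean in HLS than in Control femurs, with a median log2 difference of 0.30 and a range of 0.10 to 0.48, and 0 of 7 were called. They also varied more between animals of a group than most probes did: the median residual SD was 0.38, at the 94.5th percentile of all tested probes. Col2a1, the chain of the main cartilage fibril, read 6.70, 6.87, 6.34, 6.41 and 5.81 in HLS mice, against 5.87, 6.57, 5.87, 6.22 and 5.73 in Control mice. HLS 1 and 2 lay above every Control value, while HLS 5 lay below every Control value but that of Control 5. The log2 difference of Col2a1 was 0.37 (SE 0.20, 95% interval -0.05 to 0.80, adjusted p = 0.347). Its second tested probe gave 0.36.

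Type IX collagen lies on the surface of type II fibrils, and Col9a1, Col9a2 and Col9a3 encode its chains. Col9a3 read 2.56, 2.79, 2.16, 2.38 and 1.67 in HLS mice, against 1.62, 2.42, 1.71, 1.93 and 1.50 in Control mice. HLS 1 and 2 were again above every Control value, and HLS 5 lay among the Control values. The HLS mean was 2.31 ± 0.43 and the Control mean 1.84 ± 0.36 (SD, n = 5 each), a log2 difference of 0.48 (SE 0.21, unadjusted p = 0.0369, adjusted p = 0.293). Col9a2 read 3.15, 3.55, 2.89, 2.92 and 2.45 in HLS mice, against 2.56, 3.15, 2.50, 2.69 and 2.18 in Control mice, with a log2 difference of 0.38 (SE 0.20, adjusted p = 0.346). HLS 2 was the highest and Control 5 the lowest of the 10. Col9a1 had a log2 difference of 0.30 (adjusted p = 0.435), and Col11a1 and Col11a2, chains of the type XI collagen inside the same fibrils, had 0.12 and 0.19 (adjusted p = 0.66 and 0.533). The second probes of Col11a1 and Col11a2 gave -0.16 and 0.010. Col10a1, the chain of the growth plate collagen, read 2.09, 2.22, 1.68, 1.64 and 1.21 in HLS mice, against 1.71, 2.23, 1.60, 1.73 and 1.06 in Control mice. The groups covered nearly the same range, and the log2 difference was 0.10 (95% interval -0.36 to 0.56, adjusted p = 0.809).

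The cartilage genes followed the same arrays. HLS 2 was the highest HLS array for all 7 and Control 5 the lowest Control array for all 7; over the 10 arrays HLS 2 was highest for 6 of 7, with Control 2 highest for Col10a1. Averaged over the 7 genes and relative to the mean over all arrays, the log2 level was 0.35, 0.59, 0.047, 0.019 and -0.31 in HLS mice 1 to 5, against -0.25, 0.32, -0.25, 0.027 and -0.54 in Control mice 1 to 5. The 12 cartilage markers that are not collagens gave 0.16, 0.45, 0.060, 0.078 and -0.020 in HLS mice, against -0.36, 0.31, -0.097, -0.15 and -0.43 in Control mice. Both sets had the same highest HLS array, the same lowest HLS array, the same highest Control array and the same lowest Control array, namely HLS 2, HLS 5, Control 2 and Control 5. This was not particular to cartilage, since the type VI collagens and the collagen-degrading enzymes had these same extreme arrays. The marker list had 12 of 12 positive log2 differences with a median of 0.31, and 0 of 12 were called. The part of cartilage content in the collagen values was not tested. With the mean of a gene's tested probes, 6 of the 7 cartilage collagens were higher in HLS. The median of the 7 was 0.20 without Control 5 and 0.16 without HLS 2, each with 6 of 7 higher in HLS. Without HLS 5 the median was 0.47. Within slide 2, where Control 5 is the only Control array, it was 0.93.

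Among those markers, Acan, the core protein of the cartilage proteoglycan aggrecan, had a level of 2.94 ± 0.38 in HLS and 2.83 ± 0.34 in Control femurs (SD, n = 5 each), a log2 difference of 0.11 (adjusted p = 0.779). Comp, a protein that binds type II and type IX collagen, had 4.94 ± 0.13 in HLS and 4.62 ± 0.38 in Control femurs (0.32, adjusted p = 0.322). Sox9, the transcription factor that drives cartilage genes, had -0.39 ± 0.24 in HLS and -0.57 ± 0.36 in Control femurs (0.18, adjusted p = 0.568). Ucma, a secreted protein of growth plate chondrocytes, read 1.32, 1.63, 1.57, 1.32 and 2.05 in HLS mice, against 0.84, 1.49, 1.05, 0.91 and 1.04 in Control mice. Only Control 2 lay within the HLS range, and the log2 difference was 0.51 (unadjusted p = 0.0053, adjusted p = 0.24). Mia, a protein secreted by chondrocytes, had 1.01 ± 0.07 in HLS and 0.72 ± 0.16 in Control femurs (0.29, adjusted p = 0.252).

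**Figure D3:**
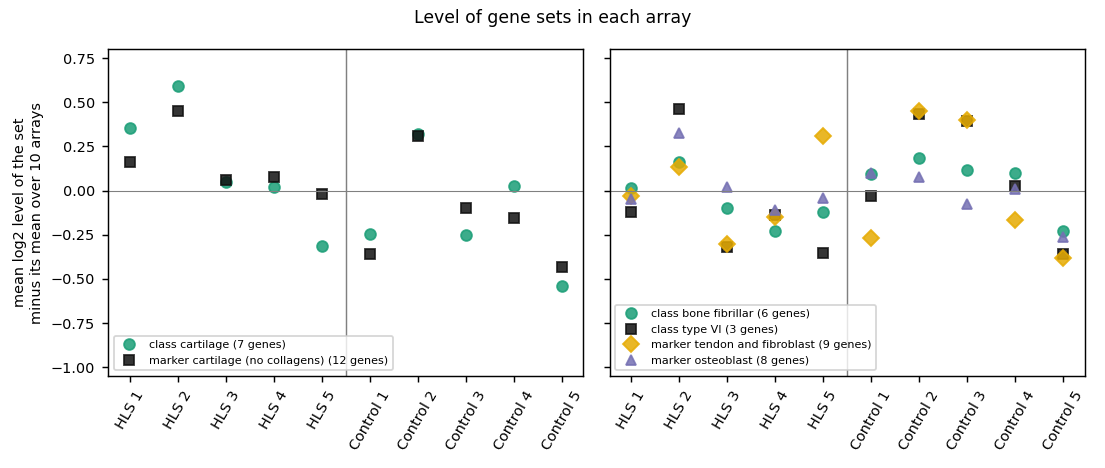
Mean log2 level of a gene set in each array, relative to the set's mean over 10 arrays (y axis), HLS arrays left and Control arrays right of the vertical line. Left, the 7 cartilage collagens and 12 other cartilage markers share their highest array, HLS 2, and their lowest, Control 5; right, the bone fibrillar and type VI collagens are shown with the tendon and fibroblast and the osteoblast markers, and Control 5 is the lowest array of all 4 sets.

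Because the cartilage collagens varied together over the arrays, the start regions of 3 of them are shown, Col9a2 with a difference among the larger of the class, Col11a2 with a smaller one and Col10a1 with the smallest. Each is 300 bases from RefSeq (GRCm38.p6), written 5′ to 3′ on the strand of the gene, and all 3 genes lie on the plus strand. A window runs from 250 before to 50 after a listed start of the gene. For Col11a2 that start lies inside the gene, whose first base is 34038919. The windows are chr4:121039316-121039615 for Col9a2, chr17:34038888-34039187 for Col11a2 and chr10:34389731-34390030 for Col10a1. Capitals mark 5 short motifs searched on both strands, so that the reverse complement is marked too. They were the TATA box letters TATAAA, the box known as CCAAT, the GC box letters GGGCGG, and, as letters that SOX factors are known to bind, ACAATG as well as the similar run ACAAAG.
Col9a2: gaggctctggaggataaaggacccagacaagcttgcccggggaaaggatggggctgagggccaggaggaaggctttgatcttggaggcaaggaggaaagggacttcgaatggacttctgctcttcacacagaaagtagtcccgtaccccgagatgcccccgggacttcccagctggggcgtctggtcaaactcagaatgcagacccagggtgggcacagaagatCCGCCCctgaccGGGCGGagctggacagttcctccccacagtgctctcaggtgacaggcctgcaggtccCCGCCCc
Col11a2: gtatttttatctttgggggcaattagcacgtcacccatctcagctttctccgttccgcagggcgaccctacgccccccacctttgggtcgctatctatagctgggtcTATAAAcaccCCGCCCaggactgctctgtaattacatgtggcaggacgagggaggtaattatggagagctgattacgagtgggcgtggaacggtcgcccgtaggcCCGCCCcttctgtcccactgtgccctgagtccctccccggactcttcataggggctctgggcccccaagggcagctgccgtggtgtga
Col10a1: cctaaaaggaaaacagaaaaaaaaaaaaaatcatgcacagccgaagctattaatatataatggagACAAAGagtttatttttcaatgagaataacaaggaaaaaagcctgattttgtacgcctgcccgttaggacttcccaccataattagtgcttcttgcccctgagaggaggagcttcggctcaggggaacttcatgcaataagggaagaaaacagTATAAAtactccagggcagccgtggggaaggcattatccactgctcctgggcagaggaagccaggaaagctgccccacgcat
Col10a1 and Col11a2 each had 1 TATAAA and Col9a2 had 0, Col9a2 had 3 copies of GGGCGG, Col11a2 had 2 and Col10a1 had 0, and Col10a1 had the single ACAAAG of the 3. Windows were found for 32 of the 40 collagen genes, 35 windows in all. TATAAA occurred in 14.3% of the 35, against 13.6% of 32851 promoter windows of the same table, and CCAAT in 34.3% against 37.4%. GGGCGG occurred in 57.1% of collagen windows against 35.7% of all, ACAATG in 2.86% against 12.6% and ACAAAG in 14.3% against 18.7%. In 0 of the 35 windows did different motifs overlap.

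The 6 type IV genes had 4 positive and 2 negative log2 differences, a median of 0.081, and 0 of 6 were called. The median was 0.16 without Control 5, 0.039 without HLS 4, 0.012 within slide 2 and -0.014 with arrays scaled to their medians. Col4a1 and Col4a2, which form the type IV network of most basement membranes, had the smallest differences of the class: -0.00033 (95% interval -0.26 to 0.26) and -0.011 (95% interval -0.28 to 0.26). Col4a1 read 1.01, 1.25, 0.88, 0.98 and 0.79 in HLS mice, against 1.06, 1.07, 0.94, 1.18 and 0.66 in Control mice. Col4a2 read 1.54, 1.82, 1.39, 1.45 and 1.21 in HLS mice, against 1.42, 1.62, 1.53, 1.69 and 1.21 in Control mice. The second tested probe of Col4a1 gave a log2 difference of -0.30 (95% interval -0.76 to 0.15), and that of Col4a2 gave 0.073. For both genes HLS 2 was the highest array. The pair is transcribed in opposite directions from one shared start region, and so the start regions are shown together, Col4a1 on the minus strand at chr8:11312777-11313076 and Col4a2 on the plus strand at chr8:11312555-11312854 (RefSeq, GRCm38.p6). Capitals again mark the motifs named above.
Col4a1: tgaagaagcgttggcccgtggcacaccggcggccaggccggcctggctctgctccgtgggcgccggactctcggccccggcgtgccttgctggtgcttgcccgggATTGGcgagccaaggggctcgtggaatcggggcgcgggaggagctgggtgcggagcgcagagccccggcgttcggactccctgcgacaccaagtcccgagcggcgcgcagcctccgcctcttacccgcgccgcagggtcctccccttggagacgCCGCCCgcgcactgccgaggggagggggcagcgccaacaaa
Col4a2: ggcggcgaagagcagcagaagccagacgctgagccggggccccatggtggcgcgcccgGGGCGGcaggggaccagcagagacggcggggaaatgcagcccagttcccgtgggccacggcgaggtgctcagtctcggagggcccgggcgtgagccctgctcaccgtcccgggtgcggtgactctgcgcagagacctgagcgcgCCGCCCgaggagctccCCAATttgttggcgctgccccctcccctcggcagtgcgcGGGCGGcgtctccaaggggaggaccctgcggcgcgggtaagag
The last bases of each window are the reverse complement of the other's, an overlap of 78 bases that holds a CCGCCC in the Col4a1 reading and a GGGCGG in the Col4a2 reading. Each window held CCAAT or its complement 1 time and TATAAA 0 times.

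Col4a5 and Col4a6, a neighbouring pair on the X chromosome whose chains are found in specialised basement membranes, had the smallest p of the type IV genes. Col4a5 read -1.14, -1.20, -1.04, -0.90 and -0.81 in HLS mice, against -1.10, -1.27, -1.51, -1.25 and -1.15 in Control mice. HLS 3 to 5 lay above every Control value and HLS 1 and 2 among them, and the log2 difference was 0.24 (SE 0.11, unadjusted p = 0.0489, adjusted p = 0.309). Col4a6 read -1.08, -0.79, -0.78, -0.83 and -0.81 in HLS mice, against -1.02, -1.11, -0.97, -1.13 and -0.89 in Control mice. Except for HLS 1, every HLS value lay above every Control value, and the log2 difference was 0.17 (SE 0.09, adjusted p = 0.371). The other tested probes of Col4a6 gave -0.079 and 0.41. Col4a3 and Col4a4, chains of the basement membrane of the kidney glomerulus, had log2 differences of 0.047 and 0.12 (adjusted p = 0.865 and 0.598). Col4a3, Col4a4, Col4a5 and Col4a6 had mean levels below 0, where 71% of all tested probes had the higher mean in HLS.

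The 3 type VI genes all had the lower mean in HLS femurs, with a median log2 difference of -0.21, and 0 of 3 were called. Col6a1, Col6a2 and Col6a3 encode the chains that make up the filaments around cells. Col6a1 read 1.37, 2.01, 1.18, 1.45 and 0.96 in HLS mice, against 1.49, 1.96, 2.02, 1.51 and 1.09 in Control mice. Col6a3 read 2.23, 2.68, 1.98, 1.94 and 2.08 in HLS mice, against 2.20, 2.87, 2.60, 2.40 and 1.88 in Control mice. In both genes HLS 2 lay with the high Control arrays 2 and 3, and Control 5 lay with or just below the other HLS arrays. The log2 differences were -0.22 for Col6a1 (SE 0.20, adjusted p = 0.561), -0.21 for Col6a3 (SE 0.18, adjusted p = 0.546) and -0.14 for Col6a2 (SE 0.16, adjusted p = 0.648). The dimmer probes went the other way. That of Col6a2 gave 0.21 (unadjusted p = 0.0443, adjusted p = 0.304 in limma), and those of Col6a3 gave 0.45 and 0.081. The class median was -0.33 without HLS 2, -0.33 without Control 5, -0.090 without Control 2 and 0.42 within slide 2, and with the mean of all tested probes of a gene it was 0.037.

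The 6 FACIT genes had 3 positive and 3 negative log2 differences with a median of -0.017, and 0 of 6 were called. Col22a1, a collagen of tissue junctions such as that of muscle and tendon, read 3.94, 4.20, 3.73, 3.54 and 4.07 in HLS mice, against 3.56, 3.93, 3.66, 3.94 and 3.33 in Control mice. HLS 2 was the highest and Control 5 the lowest, with the other values interleaved, and the log2 difference was 0.21 (SE 0.15, adjusted p = 0.448). Col14a1, a collagen on fibrils of tendon and skin, read -0.34, -0.67, -0.62, -0.75 and -0.27 in HLS mice, against -0.74, 0.47, 0.01, -0.15 and -0.76 in Control mice. The Control arrays spanned more than the HLS arrays, with Control 2 to 4 above every HLS value and Control 1 and 5 at the low end. Its log2 difference was -0.29 (SE 0.21, adjusted p = 0.456), and -0.12 without Control 2. Col12a1, Col16a1, Col19a1 and Col20a1, further collagens with interrupted helices, had log2 differences between -0.082 and 0.14 and adjusted p between 0.539 and 0.936. The median of the class was 0.060 without Control 2, -0.077 without Control 5, 0.35 within slide 2 and 0.035 with the mean of all tested probes of a gene.

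All 4 transmembrane genes had the higher mean in HLS femurs, with a median log2 difference of 0.22, and 0 of 4 were called. Col17a1, the hemidesmosome collagen that anchors epithelia, read -2.19, -2.29, -2.13, -1.89 and -1.91 in HLS mice, against -2.31, -2.63, -2.46, -2.28 and -2.16 in Control mice. HLS 3 to 5 lay above every Control value, and the log2 difference was 0.28 (SE 0.12, unadjusted p = 0.0288, adjusted p = 0.281). Its second probe gave 0.35. Col23a1 read -0.78, -1.19, -0.59, -1.03 and -0.24 in HLS mice, against -1.03, -1.09, -1.61, -0.90 and -1.09 in Control mice. HLS 5 was the highest and Control 3 the lowest, and the log2 difference was 0.38 (SE 0.18, adjusted p = 0.311). Col25a1, which is known from neurons and from the plaques of Alzheimer brains, and Col13a1, a collagen of cell-matrix contacts and of the neuromuscular junction, had log2 differences of 0.17 and 0.14 (adjusted p = 0.531 and 0.564). Within slide 2, 2 of the 4 were positive, with a median of 0.093. The class median was 0.15 with normexp background correction and 0.13 with arrays scaled to their medians. Col17a1, Col23a1 and Col25a1 had mean levels below 0, where 71% of all tested probes had the higher mean in HLS.

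The 7 tested genes of the other types had 4 positive and 3 negative log2 differences, with a median of 0.074, and 0 of 7 were called. Col8a1, a short-chain collagen of endothelial and other cells, read 3.94, 3.77, 3.76, 3.46 and 3.47 in HLS mice, against 3.99, 4.01, 3.93, 3.95 and 3.72 in Control mice. HLS 4 and 5 were the lowest of the 10, and the other HLS values lay within the Control range. The log2 difference was -0.24 (SE 0.11, unadjusted p = 0.0534, adjusted p = 0.315). Col7a1, the chain of the anchoring fibrils of skin, read 0.21, 0.03, 0.12, 0.09 and 0.19 in HLS mice, against -0.01, -0.10, -0.12, -0.16 and 0.17 in Control mice. Only Control 5 lay within the HLS range, and the log2 difference was 0.17 (SE 0.09, adjusted p = 0.348). Col24a1 and Col27a1 encode fibrillar chains made in developing bone and in cartilage, and had -0.27 and 0.15 (adjusted p = 0.383 and 0.617). Col8a2, the partner chain of Col8a1, and Col15a1 and Col18a1, proteoglycan collagens of basement membrane zones, had log2 differences between -0.13 and 0.13 and adjusted p between 0.558 and 0.757. The median of the class was 0.12 without Control 2, 0.016 without Control 5, 0.025 without HLS 2, 0.043 without HLS 4 and -0.0028 without HLS 5. It was -0.021 with arrays scaled to their medians, 0.00035 with quantile normalization, 0.00011 with array weights and 0.16 within slide 2.

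**Figure D4:**
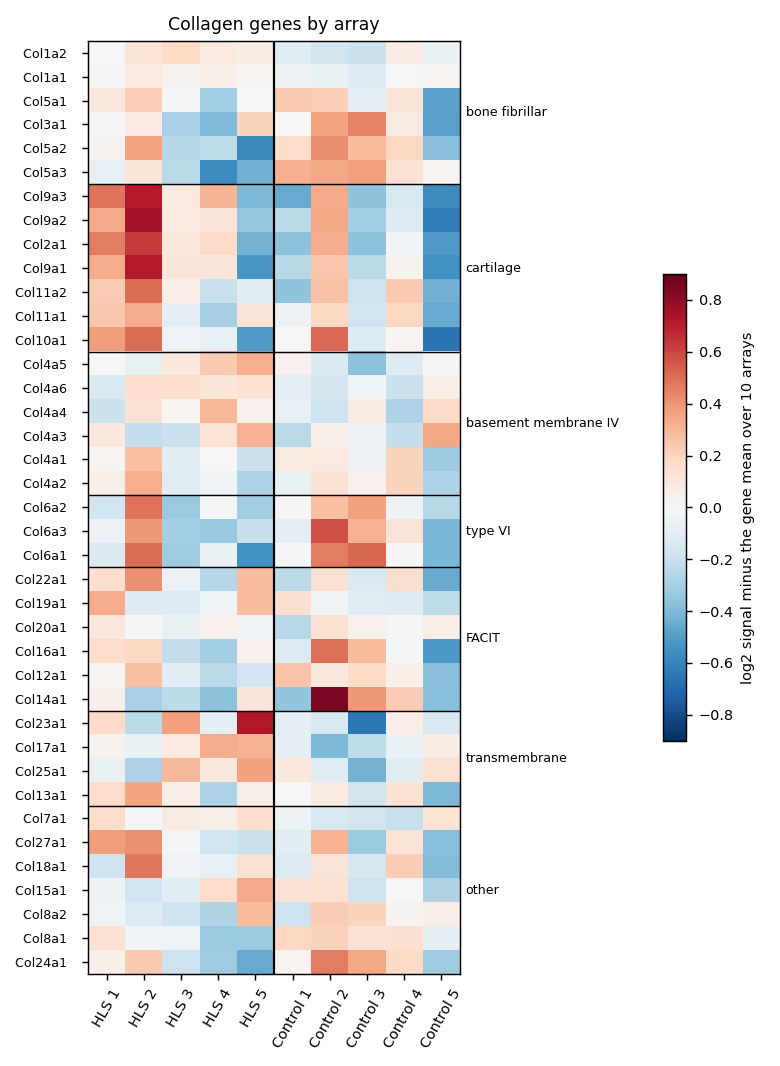
Log2 signal of 39 collagen genes (down the page, by class) in 5 HLS and 5 Control arrays, relative to each gene's mean over 10 arrays (colour, red above and blue below that mean). The cartilage block is red in HLS 2 and blue in Control 5 across all 7 genes, and Control 5 is the lowest of the 10 arrays for 20 of 39 genes.

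The array of Control 5 was set against the mean of the other 4 Control arrays for each class. Its set level, minus that mean, was -0.35 for the bone fibrillar, -0.50 for the cartilage, -0.56 for the type VI, -0.40 for the FACIT and -0.24 for the other genes, but 0.050 for the type IV and 0.049 for the transmembrane genes. Over the marker lists the same quantity was -0.49 for tendon and fibroblast, -0.37 for skeletal muscle, -0.35 for cartilage, -0.29 for osteoblast and -0.29 for adipocyte markers. It was -0.12 for endothelial, -0.012 for osteocyte, 0.023 for nerve and Schwann cell, 0.053 for erythroid, 0.14 for neutrophil and 0.16 for B cell markers. Control 5 lay below all other Control arrays for tendon and fibroblast, cartilage, osteoblast and endothelial markers, and above them for B cell markers. For the remaining lists, skeletal muscle among them, it lay within the range of the other Control arrays. The part of these cell types in the collagen values was not tested. For the 9 tendon and fibroblast markers the set level ranged from -0.30 to 0.31 in HLS and from -0.38 to 0.45 in Control arrays, and for the 12 skeletal muscle markers from -0.45 to 0.62 in HLS and from -0.64 to 0.66 in Control arrays. None of the 11 marker lists had a called member. Their median log2 differences were -0.21 for skeletal muscle, -0.20 for adipocyte, -0.18 for B cell, -0.13 for erythroid and -0.078 for endothelial markers. They were 0.014 for neutrophil, 0.024 for tendon and fibroblast, 0.037 for osteoblast, 0.062 for osteocyte and 0.14 for nerve and Schwann cell markers. The 6 osteocyte differences were all positive, from 0.035 to 0.55, and the 7 adipocyte differences were all negative, from -0.42 to -0.015. Every HLS value lay above every Control value for 1 of 6 osteocyte and 1 of 6 nerve and Schwann cell markers (16.7% each). Over all tested probes this share was 1.51%. In the remaining marker lists the groups overlapped for every gene.

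Different probes of a gene often did not give the same direction. Of the 28 genes with 2 or more tested probes, 14 had probes of both signs. The brightest probe of Col3a1 gave -0.16 and the dimmest -0.14, while the probe between them in brightness gave 0.40 (unadjusted p = 0.00366, adjusted p = 0.231 in limma). That middle probe read -1.90, -1.74, -1.71, -1.43 and -1.44 in HLS mice against -2.01, -2.19, -2.13, -1.87 and -2.01 in Control mice. On it every HLS value but that of HLS 1 lay above every Control value. Col6a3 gave -0.21 on the brightest probe and 0.45 and 0.081 on the others, and Col24a1 gave -0.27 and 0.25. The probes of Col1a1 gave 0.078, -0.13 and 0.11, and the second of them spread from 4.89 to 6.15 over HLS arrays and from 5.04 to 5.81 over Control arrays. Brightness did not order the signs in every gene: for Col1a1, Col1a2, Col11a1, Col27a1 and Col4a6 the brightest probe was positive and a dimmer one negative. Over the whole array, dimmer probes more often had the higher mean in HLS. Of all tested probes with a mean level above 0, 39.6% had the higher mean in HLS, against 71% of those below 0, and of the collagen probes these were 18 of 33 and 34 of 42.

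**Figure D5:**
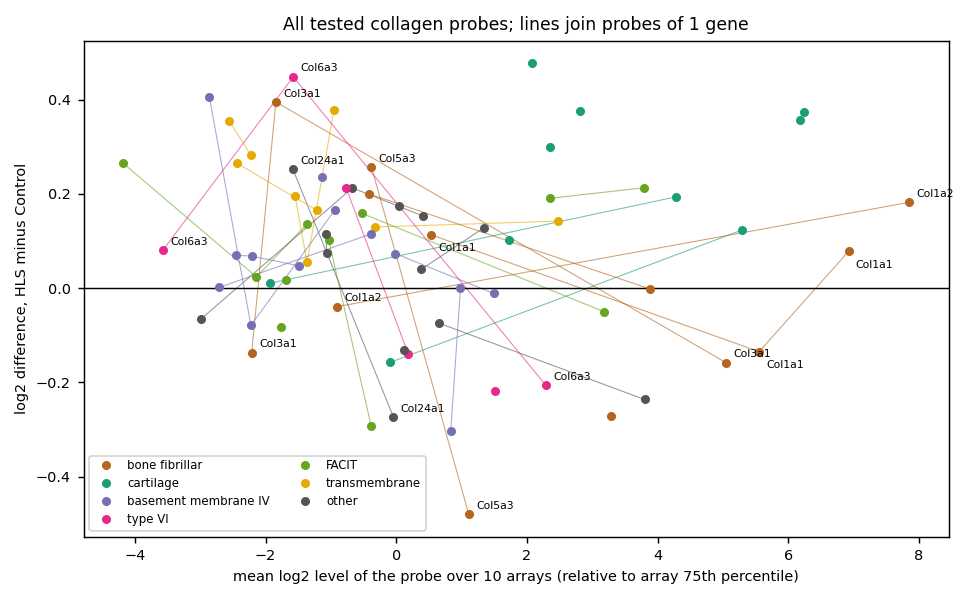
All 75 tested collagen probes, with the mean log2 level over 10 arrays (x axis) and the log2 difference, HLS minus Control (y axis); colours are classes and lines join probes of 1 gene. Of 42 probes below a level of 0, 34 lie above the horizontal line, against 18 of 33 to the right, and the lines of Col5a3, Col3a1, Col6a3 and Col24a1 cross it.

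The genes that make, process, bind and remove collagen gave 0 calls in 5 lists. Among 18 genes of hydroxylation, glycosylation and folding, 9 log2 differences were positive and 9 negative, with a median of 0.0035. P4ha1, a catalytic subunit of prolyl 4-hydroxylase, had 0.50 ± 0.29 in HLS (n = 4, since the spot of HLS 1 was marked as an outlier) and 0.83 ± 0.27 in Control femurs (n = 5), a log2 difference of -0.33 (adjusted p = 0.328). P3h4, a partner of the lysyl hydroxylase complex, had 1.32 ± 0.25 in HLS and 1.06 ± 0.19 in Control femurs (0.25, adjusted p = 0.34). Of 15 genes of secretion, propeptide removal and cross-linking, 9 were positive, with a median of 0.039. An unadjusted p below 0.05 with the higher mean in HLS was reached by 2 of 15 (13.3%), against 10.2% of all tested probes. The 2 genes were lysyl oxidase relatives. Loxl4 read -1.09, -0.92, -0.96, -0.94 and -0.89 in HLS mice, against -1.11, -1.11, -1.29, -1.29 and -1.42 in Control mice, so that the groups were narrowly apart. Loxl4 was the 1 gene of the 15 with groups apart (6.67%), against 3.16% of all tested probes. Its log2 difference was 0.28 (unadjusted p = 0.00863, adjusted p = 0.251), and that of Loxl3 was 0.27 (adjusted p = 0.308).

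Of 10 collagen receptors 7 were positive, with a median of 0.071. Ddr2, a receptor tyrosine kinase that binds fibrillar collagen, had 0.47 ± 0.21 in HLS and 0.73 ± 0.26 in Control femurs (-0.26, adjusted p = 0.349), and Itga1, a collagen-binding integrin chain, had -0.66 ± 0.16 in HLS and -0.85 ± 0.12 in Control femurs (0.19, adjusted p = 0.365). Of 6 collagen-degrading enzymes 4 were positive, with a median of 0.0030. Mmp8, the neutrophil collagenase, had 3.09 ± 0.15 in HLS and 3.25 ± 0.08 in Control femurs (-0.17, adjusted p = 0.379), and Mmp14, a membrane-bound collagenase, had 5.13 ± 0.26 in HLS and 5.04 ± 0.18 in Control femurs (0.084, adjusted p = 0.744). Of 10 fibril-associated proteoglycans and matrix proteins 6 were positive, with a median of 0.019. Prelp, a small leucine-rich proteoglycan, had 3.16 ± 0.20 in HLS and 2.91 ± 0.29 in Control femurs (0.24, adjusted p = 0.387), and Tgfbi, a matrix protein that binds collagen, had 3.23 ± 0.14 in HLS and 3.40 ± 0.23 in Control femurs (-0.17, adjusted p = 0.444). Values after ± are SD over 5 arrays unless another n is given.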

How the data were processed

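RNA of 5 HLS and 5 Control femurs was read on 10 one-colour arrays of Agilent design 014868. The deposited scanner files give intensity on a linear scale, background-corrected and detrended by the authors with Agilent Feature Extraction 9.1.3.1, per the file headers, and not scaled from array to array. The deposited series matrix holds the same intensity, uncentred (ratios to the scanner values of 0.995 to 1.005), with column medians of 253 to 315 for HLS and 261 to 335 for Control arrays, and served as an alternative. With 1 colour it has no direction.

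Of 43379 gene spots per array, 97 over all arrays marked as outliers were left out, 0 of them on collagen probes. Spots of a probe were averaged as log2 intensity, and the array's 75th percentile was subtracted. Tests took probes well above background on 4 or more arrays of either group, with 3 or more measured arrays in both. HLS minus Control was fitted with limma 3.58.1 in R 4.3.3 (lmFit, eBayes, two-sided, no covariate), with p adjusted over 38629 probes; the procedure was tested on simulated data. Input was read with version 1.17.8 of data.table, and plots were made in matplotlib 3.10.9. The number of arrays limits the precision. Current names of non-members came from RefSeq, by accession for 22951 probes, by symbol for 6659 and by an older name for 3109, and 8455 kept the file's name.

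The members, the 5 pathway lists and the 11 marker lists were chosen with earlier results of these data known. Each member is accounted for. Genes named with the value of every array were Col1a1, Col1a2, Col3a1, Col2a1, Col10a1 and in each class the 2 with the smallest p, and from each pathway list the 2 with the smallest p were named. From the cartilage markers these were Acan, Comp, Sox9 and the 2 with the smallest p. Array values of Col4a1, Col4a2, Ucma, Loxl4 and second probes were added after they had been seen. Deviations of same-numbered HLS and Control mice from their group means correlated between -0.139 and 0.176, so the numbers were not treated as pairs.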

Additional observations from a re-analysis of the deposited data

Results flagged for a closer look

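In 5 of 94 groups of 5 arrays, 1 array lay far from the other 4, where chance flags about 1 in 20 groups. Col4a6 was lowest in HLS 1, at -1.08, with the other HLS arrays between -0.833 and -0.782. Col8a1 was lowest in Control 5, at 3.72, with the other Control arrays between 3.93 and 4.01. Col23a1 was lowest in Control 3, at -1.61, with the other Control arrays between -1.09 and -0.897. The mean level of the 6 bone fibrillar genes, relative to its mean over 10 arrays, was lowest in Control 5, at -0.227, with the other Control arrays between 0.0944 and 0.185. The mean level of the 3 type VI genes was highest in HLS 2, at 0.462, with the other HLS arrays between -0.353 and -0.122.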

How the results depend on the processing

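Group and slide are largely confounded, since slide 2 alone holds both groups and has 1 Control array. No collagen probe was called under any of the 23 alternatives that gave a test, and the lowest adjusted p of a collagen gene was 0.111. Over these and the untested values within slide 2, 16 of 39 genes kept their sign and 23 turned it under at least 1. The cause was not tested. With slide as a fixed block, as within slide 2 without a test, the class medians were 0.929 for cartilage, 0.421 for type VI, 0.354 for FACIT, 0.292 for bone fibrillar and 0.0119 for type IV, and 19 genes had the opposite sign: Col4a3 -0.45, Col4a4 -0.19, Col25a1 -0.15, Col17a1 -0.049, Col7a1 -0.045, Col20a1 -0.042, Col8a1 0.11, Col14a1 0.22, Col6a2 0.24, Col24a1 0.35, Col4a2 0.37, Col4a1 0.39, Col5a2 0.42, Col6a3 0.42, Col3a1 0.42, Col6a1 0.43, Col12a1 0.44, Col16a1 0.56 and Col5a1 0.58. As a random block, with a correlation of -0.0314 between arrays of a slide, it turned no sign. With arrays scaled to their medians the type IV median was -0.0139, that of the other types -0.021, and Col1a1 (-0.017), Col15a1 (-0.021), Col4a3 (-0.048) and Col20a1 (-0.079) turned sign. With quantile normalization Col4a3 (-0.049), Col20a1 (-0.085), Col5a1 (0.0073), Col4a2 (0.046) and Col4a1 (0.048) did so, and with normexp background correction Col5a1 (0.0024) and Col4a2 (0.0064). With the mean of a gene's tested probes these were Col11a1 (-0.017), Col4a2 (0.031), Col3a1 (0.033), Col6a2 (0.037), Col16a1 (0.055), Col5a1 (0.099) and Col6a3 (0.11). Leaving out each array in turn gave medians of 0.158 to 0.468 for cartilage, -0.334 to -0.0903 for type VI, -0.212 to -0.0024 for bone fibrillar, -0.0766 to 0.0603 for FACIT, 0.0386 to 0.157 for type IV, 0.190 to 0.295 for transmembrane and -0.0028 to 0.117 for other genes. The genes that turned sign in these fits were Col10a1 (-0.049 to 0.24), Col15a1 (-0.0028 to 0.13), Col16a1 (-0.18 to 0.068), Col20a1 (-0.044 to 0.053), Col4a1 (-0.082 to 0.050), Col4a2 (-0.095 to 0.056), Col4a3 (-0.025 to 0.14) and Col5a1 (-0.12 to 0.074). With the replicate number as a block 0 collagen probes were called, with a smallest adjusted p of 0.232, and 14 of 75 reached an unadjusted p below 0.05 in place of 9; no same-numbered pair correlated best with its own number. The series matrix, both filters on dim probes, array weights, the intensity trend and membership by current symbol turned no sign.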
